A study of Mus musculus with 16 samples.

Results

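Retinoic acid, the acid form of vitamin A, is made, sensed and broken down by a small set of proteins, and 9 of their genes are described here in reporter-positive cells, meant to be rod photoreceptor precursors, sorted from mouse retinal organoids. The genes are Aldh1a1, Aldh1a2 and Aldh1a3 (synthesis), Cyp26a1, Cyp26b1 and Dhrs3 (breakdown and return to retinol), Stra6 and Crabp1 (uptake and binding) and Rarb (receptor). They were chosen by name, with earlier results of these data known, and all 9 were found among the 32166 genes of the deposited gene table. Retinal organoids are aggregates of stem cells that develop into layered retina in a dish. All cells carried the Nrlp-GFP transgene, in which the promoter of the rod transcription factor Nrl drives a green fluorescent protein. GFP-positive cells were sorted, and their polyA RNA was sequenced. The 16 libraries came from 2 kinds of stem cell. Of these, 7 came from induced pluripotent stem cells (iPSC), clones made from embryonic fibroblasts of Nrl-GFP mice with lentiviral vectors for Oct3/4, Sox2, Klf4 and c-Myc that doxycycline switches on. The other 9 came from embryonic stem cell clones (ESC) of Nrl-GFP blastocysts. The iPSC libraries number 2 at day 18, 1 at day 21, 2 at day 25 and 1 each at days 28 and 35. The ESC libraries number 3 at day 18, 3 at day 21 and 1 at each of the later days.

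All cultures were kept at 5% oxygen to day 10 and at 20% after it, and all received retinoic acid. The labels give its addition from day 14 to day 26 in 1 passage, and in another they give 500 nM retinoic acid with 1 mM taurine at the medium change of day 10, so the start differs between the passages. At day 26 all of the medium was replaced, and the listing of the new medium, with 2% serum, N-2 and B-27, names no retinoic acid. The standard form of B-27 holds a vitamin A ester, and the labels do not say which form was used. Days 18, 21 and 25 therefore lie within the addition and days 28 and 35 after it. No age has libraries both with and without retinoic acid, so the end of the addition and age cannot be told apart. Whether the libraries of a group came from separate clones or cultures is not stated, and p-values measure the spread between these libraries only.

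Retinol enters cells through receptors such as STRA6, and retinol dehydrogenases turn it into retinal, a step that DHRS3 reverses. Aldehyde dehydrogenases of the ALDH1A family turn retinal into retinoic acid, CRABP proteins carry it in the cytoplasm, and enzymes of the CYP26 family oxidise it for removal. In the nucleus it binds the receptors RARA, RARB and RARG, which sit on DNA with retinoid X receptors. Rarb, Cyp26a1 and Dhrs3 are known target genes that retinoic acid switches on in many cells. In the embryonic mouse eye, Aldh1a1 marks the dorsal retina, Aldh1a3 the ventral retina, and Cyp26 enzymes form a band of low retinoic acid between them.

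Values are CPM, read counts scaled for library size, back-calculated from the deposited gene table. Library totals ran from 3859553 to 21868907 estimated counts, and 1 estimated count was worth 0.0371 to 0.213 CPM. Day 18 was mixed. Nrl stood at 15.99 CPM in iPSC replicate 1 and 17.7 CPM in ESC replicate 1, while the remaining libraries of that day had 136 to 881 CPM. Mki67, a marker of dividing cells, was at 462 and 406 CPM in that pair. This pair was the most alike of all 120 pairs of libraries (r = 0.992 over genes), although it differed by more than sampling noise (chi-square per degree of freedom 8.32). Mean CPM of the Y-linked Ddx3y, Eif2s3y and Uty reached 42.2 in iPSC day 18 (the library labelled replicate 2) and 11.5 in iPSC day 25 (replicate 1), but only 0.626 to 1.48 in the other 5 iPSC libraries. Among ESC libraries, the 1 labelled day 18 replicate 1 had 0.927, and the other 8 had 25.6 to 73.8. These 3 libraries go against the rest of their labelled source, and their labels were not tested further. All libraries were kept in their labelled groups, so every value given by source rests on those labels. For members and named genes of the retinoid lists, calls lost without the low Nrl pair or without these libraries are named beside the result. Calls of cell type markers were not checked in those fits.

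Retinoic acid receptors bind DNA at repeats of a 6-base unit. Each unit could be the consensus AGGTCA or the variant form AGTTCA, and a first base of guanine in place of adenine (GGGTCA in the first case, GGTTCA in the second) also counted. Pairs of units in the same direction and 5 bases apart were searched on both strands in the RefSeq promoter windows of GRCm38.p6 (250 bases before to 50 after each start). Of the 9 genes, 8 had a window and Aldh1a3 had none. The repeat stood in 2 of the 8, Rarb and Cyp26a1, against 31 of 27025 genes with a window (0.115%). The units allowed include those of the known elements of these 2 genes, and the members were chosen by name. The 2 of 8 is therefore a description and not a test of enrichment. Both windows are shown because these genes carry the best known response elements of the pathway. Each is 30 bases, printed in the direction of the gene, with the repeat and its spacer in capitals:

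Rarb, chr14:16575506-16575535, minus strand: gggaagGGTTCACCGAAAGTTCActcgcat

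Cyp26a1, chr19:37697770-37697799, plus strand: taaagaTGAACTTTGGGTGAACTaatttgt

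The Rarb repeat ran from 53 to 37 bases before the RefSeq start, in the direction of the gene. The Cyp26a1 repeat ran from 32 to 16 bases before the start and reads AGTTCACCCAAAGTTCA on the opposite strand. A match of letters is a description and not evidence of binding. The windows of Cyp26b1, Aldh1a1, Aldh1a2, Stra6, Crabp1 and Dhrs3 held no such repeat, which says only that these letters were not in those windows.

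Levels of different genes can be compared per transcript length, as TPM, for the 7 genes whose transcripts the deposited transcript tables hold in full. No transcript in those tables was matched to Cyp26a1 or Rarb. Aldh1a1 averaged 157 ± 180 TPM (SD, n = 16 libraries), Crabp1 105 ± 97.3, Dhrs3 81.6 ± 51.7 and Cyp26b1 76.1 ± 63.7, and the ranges of these genes overlapped. Stra6 averaged 17.2 ± 11.8 TPM, Aldh1a3 2.94 ± 1.75 and Aldh1a2 0.34 ± 0.738. Among the synthesis enzymes Aldh1a1 stood above Aldh1a3 in 16 of 16 libraries, and Aldh1a3 above Aldh1a2 in 15 of 16. The order was not the same at every age. At day 35 Dhrs3 held 57.1 TPM in the iPSC and 68.0 in the ESC library, when Cyp26b1 held 1.26 and 3.33 TPM.

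**Figure D1:**
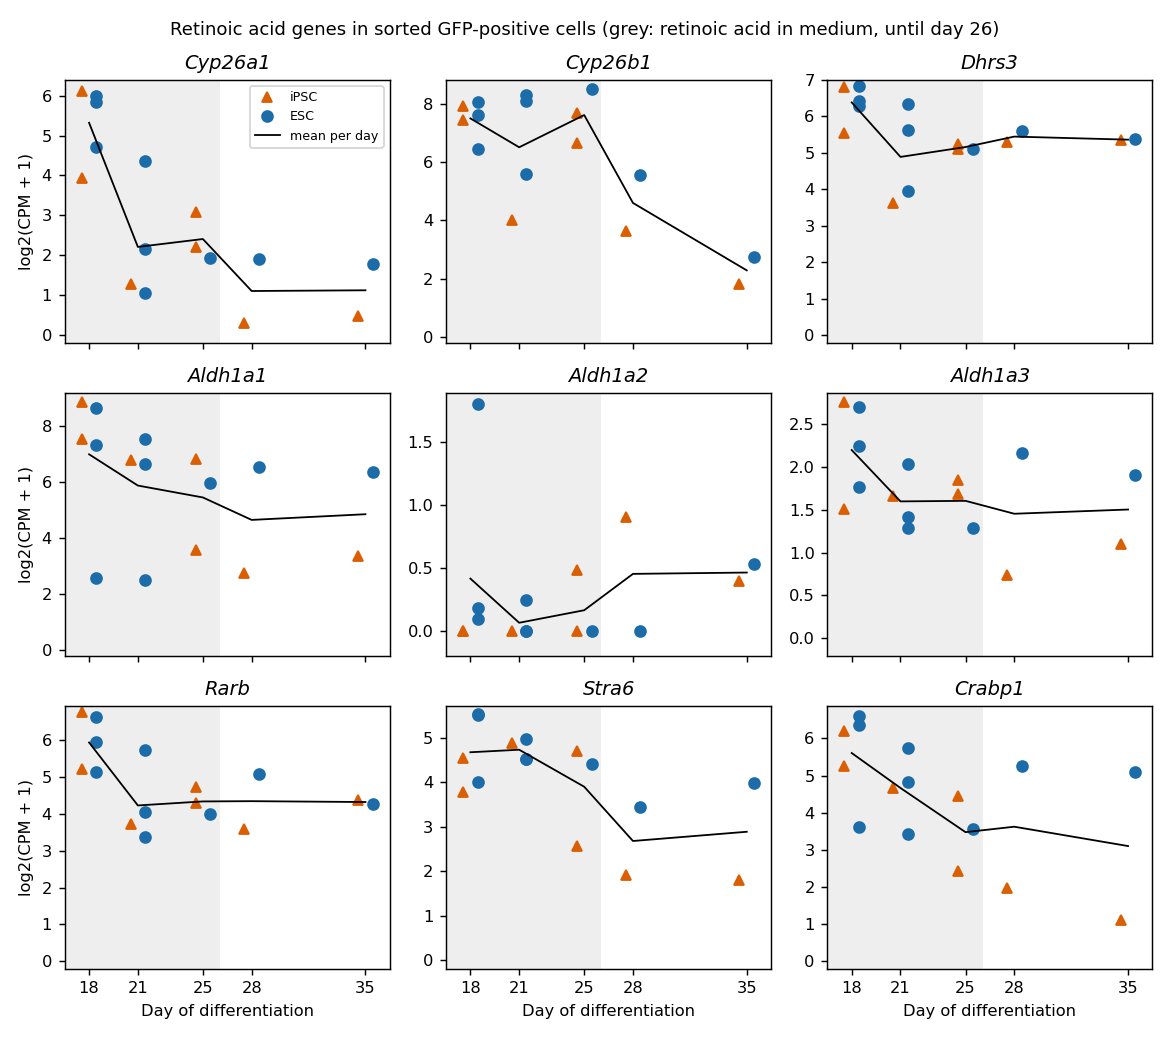
Level of each of the 9 genes, as log2(CPM + 1), in every library against day of differentiation; orange triangles are iPSC libraries, blue circles ESC libraries, the black line joins the mean of each day, and grey marks the days with retinoic acid in the medium, until day 26. Cyp26a1, Rarb and Dhrs3 are highest at day 18 and lower by day 21, while Cyp26b1 is still at 101 to 361 CPM at day 25 and at 2.53 to 45.9 CPM on days 28 and 35.

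Cyp26a1 and Cyp26b1, the enzymes that remove retinoic acid, were both lower on days 28 and 35 than on days 18, 21 and 25, a comparison in which 3.91% of all tested genes passed. Cyp26a1 (chr19:37697798-37701536, plus strand, GRCm38) had 68.2 and 14.3 CPM in iPSC and 63.1, 56.7 and 25.1 CPM in ESC libraries of day 18. At day 21 it had 1.405 CPM in the iPSC and 19.4, 3.42 and 1.07 CPM in the ESC libraries. At day 25 it had 7.49 and 3.59 CPM in iPSC and 2.78 CPM in ESC libraries. At day 28 the iPSC and ESC libraries had 0.217 and 2.75 CPM, and at day 35 they had 0.372 and 2.41 CPM. Every day 18 library but iPSC replicate 2 (14.3 CPM) was thus above all later libraries. The mean was 45.5 ± 24.2 CPM at day 18, 6.34 ± 8.80 at day 21 and 4.62 ± 2.52 at day 25, days with retinoic acid still in the medium, and 1.48 ± 1.79 at day 28 and 1.39 ± 1.44 at day 35. The iPSC value of day 28 is close to what a single estimated count is worth in that library (0.213 CPM). Cyp26a1 averaged 1.44 ± 1.33 CPM on days 28 and 35 (SD, n = 4) and 22.2 ± 25.6 CPM on days 18, 21 and 25 (n = 12), a log2 fold change of -2.16 (SE 0.559, limma adjusted p = 0.0478). In bulk samples such as these, fewer cells of a type and less RNA per cell cannot be told apart.

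Cyp26b1 (chr6:84571414-84593908, minus strand, GRCm38) had 245 and 174 CPM in iPSC and 265, 87.1 and 196 CPM in ESC libraries of day 18. At day 21 it had 15.3 CPM in the iPSC and 318, 47.1 and 277 CPM in the ESC libraries, and at day 25 it had 205 and 101 CPM in iPSC and 361 CPM in ESC libraries. At day 28 the iPSC and ESC libraries had 11.5 and 45.9 CPM, and at day 35 they had 2.53 and 5.69 CPM. The 4 libraries of days 28 and 35 lay below 11 of the 12 earlier ones. The exception was iPSC day 21 at 15.3 CPM, which was below the ESC library of day 28. Cyp26b1 averaged 16.4 ± 20.0 CPM on days 28 and 35 and 191 ± 109 CPM on days 18, 21 and 25, a log2 fold change of -3.70 (SE 0.576, limma adjusted p = 0.00635). This was the second lowest log2 fold change of all 15202 genes tested (rank 2 from the lowest). Fitted within a source, with 1 mean per source and day, the log2 fold change was -3.57 in iPSC (adjusted p = 0.0517) and -3.59 in ESC libraries (0.0781), so neither source alone passed the threshold.

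Beside the lower Cyp26 values, the summed level of 12 retinal progenitor markers ran from 153 to 790 CPM on days 28 and 35 and from 190 to 2741 CPM on days 18, 21 and 25. That of 10 cell cycle markers ran from 150 to 381 CPM and from 142 to 1727 CPM. None of the 12 progenitor and none of the 10 cell cycle genes passed in this comparison by limma, with 3 and 4 lower at an unadjusted p under 0.05. Of all tested genes 21.0% were under that unadjusted threshold, and the counts at it in this and later lists are to be read against that share. Of the 5 horizontal cell markers Onecut1 and Onecut2 passed as lower, and the rest did not pass. Prox1 averaged 40.7 CPM on days 28 and 35 and 40.2 CPM on days 18, 21 and 25. Calb1 averaged 1.18 and 0.898 CPM, and Lhx1 2.06 and 4.97 CPM. The sum of all 5 ran from 30.7 to 130 CPM and from 82.3 to 189 CPM. The part of these cells in the Cyp26 values was not tested. At day 25, where Cyp26b1 was at 205 and 101 CPM in iPSC and 361 CPM in ESC libraries, the progenitor sum was 557 and 190 CPM in iPSC and 567 CPM in ESC libraries. At day 28 it was 207 CPM in the iPSC and 790 CPM in the ESC library.

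The 2 enzymes were set against each other as the log2 ratio of Cyp26a1 to Cyp26b1, each CPM plus 1, in which gene length does not bear on differences between libraries. The ratio averaged -2.18 ± 1.11 at day 18 (SD, n = 5), -4.31 ± 1.91 at day 21 (n = 4), -5.22 ± 1.18 at day 25 (n = 3), -3.50 ± 0.20 at day 28 (n = 2) and -1.17 ± 0.28 at day 35 (n = 2). Cyp26b1 thus stood highest relative to Cyp26a1 at day 25, within the addition of retinoic acid, and the ratio was above its day 18 mean at day 35. The values of days 28 and 35 depend on the pseudocount, since Cyp26a1 was at 0.217 to 2.75 CPM there. With 0.1 in place of 1, the ratio averaged -2.22 at day 18, -5.50 at day 25, -4.60 at day 28 and -1.84 at day 35. Days 28 and 35 averaged -2.34 and days 18, 21 and 25 averaged -3.65, a difference of 1.32 that did not pass a two-sided exact permutation test (p = 0.219 over 1820 splits). With a pseudocount of 0.1 the difference was 0.66 (p = 0.581 by the same exact test).

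**Figure D2:**
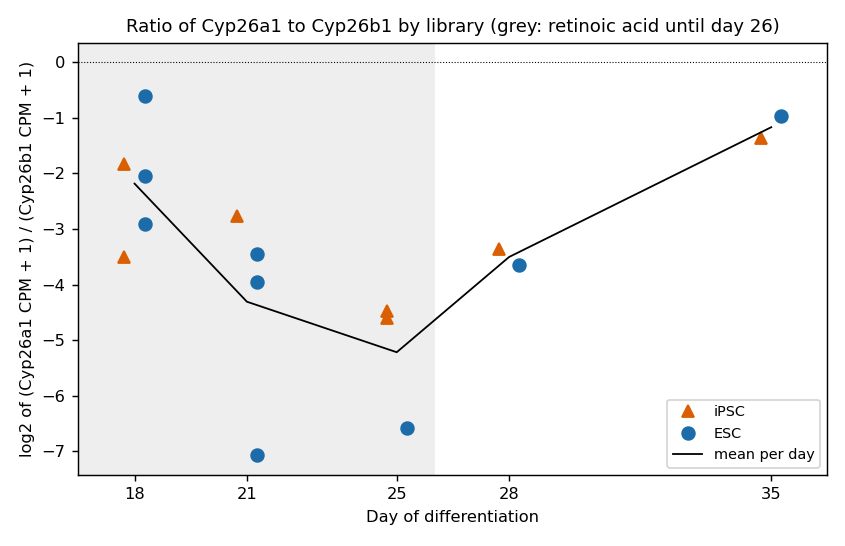
Log2 ratio of Cyp26a1 to Cyp26b1 (each CPM + 1) in each library against day; orange triangles are iPSC and blue circles ESC libraries, the line joins day means, and grey marks days with retinoic acid. The mean falls to -5.22 at day 25 and stands at -3.50 at day 28 and -1.17 at day 35.

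Dhrs3 (chr4:144892827-144928209, plus strand), the reductase that returns retinal to retinol, had 38.5 CPM in the iPSC and 47.0 CPM in the ESC library of day 28, and 39.8 and 40.3 CPM at day 35. On days 18, 21 and 25 the lowest library had 11.4 CPM, the median was 47.3 CPM and the highest was 114 CPM. The later libraries lay inside the earlier range, and the log2 fold change was -0.04 (95% confidence interval -0.85 to 0.77, adjusted p = 0.96). Dhrs3 was highest at day 18, at 86.4 ± 27.7 CPM (n = 5), and stood at 34.7 ± 2.04 CPM at day 25 (n = 3). Its log2 fold change between those days, -1.09 (SE 0.482, limma adjusted p = 0.187), did not pass.

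Of the synthesis enzymes, Aldh1a1 and Aldh1a3 did not pass in any of the comparisons between days, and Aldh1a2 was too low to be tested. Aldh1a1 (chr19:20492715-20643465, plus strand) had 5.75 and 93.2 CPM in the iPSC and ESC libraries of day 28, and 9.30 and 80.9 CPM at day 35. On days 18, 21 and 25 its lowest, median and highest values were 4.71, 112 and 471 CPM. The libraries split into low and high ones at every age from day 18, and the groups overlapped. Its log2 fold change after the end of retinoic acid was -1.35 with a 95% confidence interval of -3.97 to 1.27 (adjusted p = 0.567). Of the 16 libraries 5 held under 11 CPM. They were ESC day 21 replicate 3 (4.71), ESC day 18 replicate 2 (4.92), iPSC day 28 (5.75), iPSC day 35 (9.30) and iPSC day 25 replicate 2 (10.9). The next library up held 61.7 CPM.

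Aldh1a3 (chr7:66390890-66427517, minus strand) was low throughout, from 0.67 to 5.76 CPM, with 2.01 ± 1.32 CPM on days 28 and 35 (n = 4) and 2.81 ± 1.47 CPM on days 18, 21 and 25 (n = 12). Its log2 fold change was -0.31 (95% confidence interval -0.96 to 0.35, adjusted p = 0.608). Aldh1a2 (chr9:71215789-71296243, plus strand) was listed at 0 CPM in 8 of 16 libraries. In those libraries a count of 0 allows a level of up to 0.111 to 0.471 CPM, which covers counting error only. It reached 1 CPM in a single library, ESC day 18 replicate 2, at 2.48 CPM, and was not tested because the filter asked for at least 1 CPM in at least 2 libraries. The other 8 genes passed that filter.

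Stra6 (chr9:58063788-58153996, plus strand), the membrane receptor that takes up retinol from its carrier, was the third member that passed. It had 2.77 CPM in the iPSC and 9.91 CPM in the ESC library of day 28, and 2.46 and 14.8 CPM at day 35. On days 18, 21 and 25 its lowest, median and highest values were 4.97, 22.3 and 45.4 CPM. All 4 later libraries lay below the earlier median, but the groups overlapped, through iPSC day 25 replicate 2 (4.97 CPM) and iPSC day 18 replicate 1 (12.7 CPM). Stra6 averaged 7.50 ± 5.99 CPM on days 28 and 35 (n = 4) and 24.6 ± 11.9 CPM on days 18, 21 and 25 (n = 12), a log2 fold change of -1.60 (SE 0.412, limma adjusted p = 0.0468). Stra6 is also strongly expressed in pigment epithelium. The summed level of 10 pigment epithelium markers ran from 11.8 to 120 CPM on days 28 and 35 and from 19.2 to 120 CPM on days 18, 21 and 25. The highest earlier sum, in ESC day 21 replicate 3, held Dct at 114 CPM, and the highest later sum, in ESC day 35, held it at 30.5 CPM. Dct averaged 14.5 CPM later and 43.6 CPM earlier. None of the 7 tested passed by limma in this comparison, with 0 at an unadjusted p under 0.05. Of their log2 fold changes 5 were positive and 2 negative. The part of these cells in the Stra6 values was not tested.

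Crabp1 (chr9:54764748-54773110, plus strand), a carrier of retinoic acid in the cytoplasm, had 2.96 and 37.4 CPM in the iPSC and ESC libraries of day 28, and 1.15 and 33.3 CPM at day 35. On days 18, 21 and 25 its lowest, median and highest values were 4.43, 26.0 and 95.9 CPM. The ESC libraries of days 28 and 35 were above the earlier median and the iPSC libraries below every earlier library. The log2 fold change over both sources was -1.16 (95% confidence interval -2.73 to 0.41, adjusted p = 0.393). With 1 mean per source and day it was 0.60 in ESC libraries.

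Rarb (chr14:16430839-16819156, minus strand), the receptor whose promoter carries the repeat shown above, had 107 and 36.4 CPM in iPSC and 97.3, 60.3 and 33.7 CPM in ESC libraries of day 18. At day 21 it had 12.3 CPM in the iPSC and 52.0, 15.7 and 9.37 CPM in the ESC libraries, and at day 25 it had 25.5 and 18.5 CPM in iPSC and 14.8 CPM in ESC libraries. At day 28 the iPSC and ESC libraries had 11.1 and 32.8 CPM, and at day 35 they had 19.6 and 18.3 CPM. Apart from ESC day 21 replicate 1 (52.0 CPM), all later libraries were below the day 18 libraries, and levels from day 21 to day 35 overlapped. Rarb averaged 20.5 ± 9.05 CPM on days 28 and 35 (n = 4) and 40.2 ± 32.9 CPM on days 18, 21 and 25 (n = 12). The log2 fold change was -0.49 (95% confidence interval -1.40 to 0.42, adjusted p = 0.55).

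Across the whole table, 594 of 15202 genes passed between days 28 and 35 and days 18, 21 and 25 (limma, Benjamini-Hochberg adjusted p under 0.05), or 3.91%, with 2.18% higher and 1.72% lower. Against this background 3 of the 8 tested members passed, all lower: Cyp26b1, Cyp26a1 and Stra6. The median log2 fold change of the 8 was -1.26, and that of all genes was -0.0025. The members were chosen with earlier results of these data known, so this count and median are a description and not a test of enrichment. Cyp26b1 passed in 15 of the 16 fits that left out a single library and missed without iPSC day 28 (adjusted p = 0.0639). Cyp26a1 passed in 5 of these fits, those that dropped the second ESC or second iPSC library of day 18, ESC library 1 or 3 of day 21, or the ESC library of day 25, and its adjusted p was at most 0.294. Stra6 also passed in 5, those that dropped the first or second ESC library of day 18, ESC library 3 of day 21, the ESC library of day 35 or the second iPSC library of day 25, and its adjusted p was at most 0.284. The sign was negative in every one of the 16 fits for all 3 genes. Without iPSC day 28, 38 genes passed in the whole table. Without the day 18 pair of low Nrl, Cyp26a1 missed (adjusted p = 0.0846), and without ESC replicate 1 and iPSC replicate 2 of day 18 both Cyp26a1 (0.0647) and Stra6 (0.0542) missed. Without these last 2 and iPSC day 25 replicate 1, a choice made after seeing the data, Cyp26b1 passed (0.041), Cyp26a1 (0.131) and Stra6 (0.0809) missed, and 128 genes passed in the whole table.

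The days on either side of the medium change give the closest view of the end of the addition. Between day 28 and day 25, 0 of 15202 genes passed by limma (0%), with 662 at an unadjusted p under 0.05 (4.35%), and 0 also passed by edgeR and by DESeq2. Cyp26b1 averaged 28.7 ± 24.3 CPM at day 28 (n = 2) and 222 ± 131 CPM at day 25 (n = 3), without overlap. Its log2 fold change of -3.22 (SE 0.908) was the lowest of all genes tested, and was the only one among the members at an unadjusted p under 0.05 (0.00334, limma adjusted p = 0.9996). Stra6 stood at -1.37 (SE 0.65) and Cyp26a1 at -1.42 (SE 0.882). Rarb stood at -0.03 with a 95% confidence interval of -1.46 to 1.41, and Dhrs3 at 0.20 with one of -1.07 to 1.48, and both intervals hold changes of either sign.

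Within the addition, between day 25 and day 18, 6 genes passed of 15202 (0.0395%), all higher, and no member. The log2 fold change of Cyp26a1 was -2.74 (SE 0.715, adjusted p = 0.0891) and that of Rarb was -1.54 (SE 0.542, adjusted p = 0.125), while that of Cyp26b1 was 0.44 (SE 0.736, adjusted p = 0.733). Without iPSC day 18 replicate 2, Cyp26a1 passed (limma adjusted p = 0.0366), in a fit in which 1005 of 15198 genes passed. With array weights, which let libraries differ in their spread, 6 members and 9552 genes passed, so this comparison depends on how the spread is modelled. With a term for the replicate number, 2 members (Cyp26a1 and Rarb) and 2159 genes passed, though these numbers were not taken to pair samples. Between day 35 and day 18, 1144 genes passed (7.53%), with 4.54% higher and 2.99% lower, and among them Cyp26b1 at -5.10 (SE 0.83, adjusted p = 0.00549) and Cyp26a1 at -4.14 (SE 0.806, adjusted p = 0.0131). Cyp26a1 missed without iPSC day 35 (adjusted p = 0.105), and also without the day 18 pair of low Nrl (0.0699), while Cyp26b1 passed in both. These comparisons share libraries with the others and are not independent of them.

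**Figure D3:**
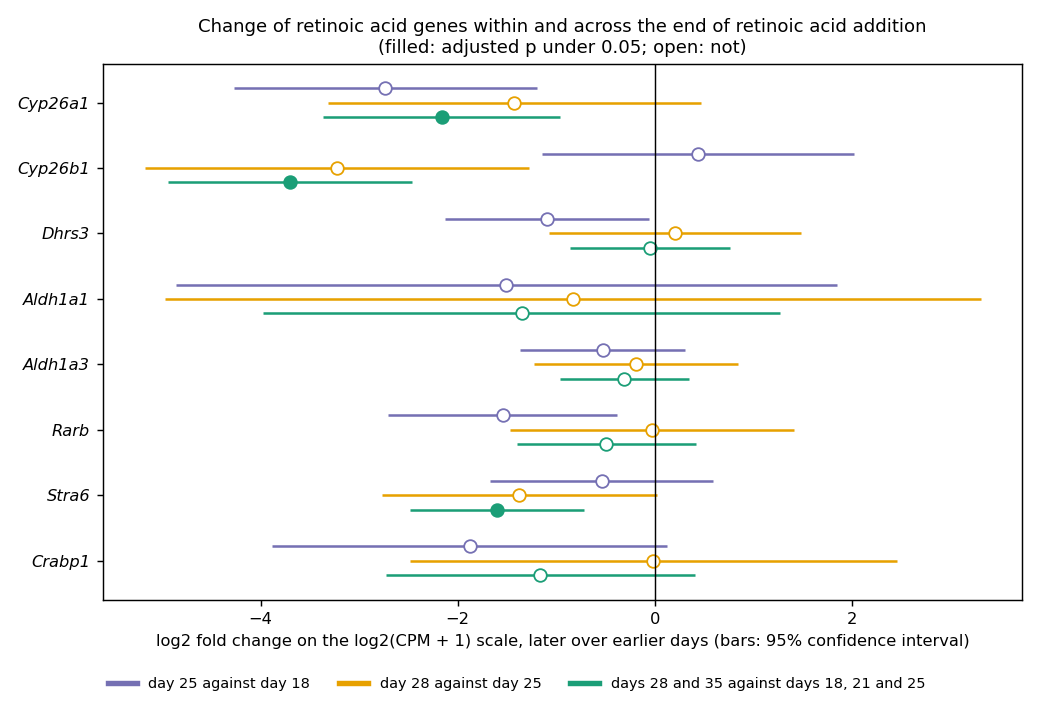
Log2 fold change of the 8 tested genes on the log2(CPM + 1) scale, later over earlier days, with 95% confidence intervals, for day 25 against day 18 (purple), day 28 against day 25 (yellow) and days 28 and 35 against days 18, 21 and 25 (green); filled points passed at an adjusted p under 0.05. Cyp26b1 stands at 0.44 within the addition of retinoic acid and at -3.22 across its end, and Cyp26a1 at -2.74 and -1.42.

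No member passed between the stem cell sources. In iPSC against ESC libraries 0 of 15202 genes passed by limma (0%), with 840 at an unadjusted p under 0.05 (5.53%), and 0 passed by edgeR and DESeq2. All 8 tested members had negative log2 fold changes, the largest for Cyp26b1 (-1.22, 95% confidence interval -2.34 to -0.10, adjusted p = 0.753) and Stra6 (-0.90, -1.70 to -0.10, 0.753), and these 2 had an unadjusted p under 0.05. Without the day 18 libraries ESC replicate 1 and iPSC replicate 2, which went against their source in Y-linked genes, no member passed, nor did any without these and iPSC day 25 replicate 1, a fit added after seeing the data in which 3 genes of the whole table passed.

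The change after the end of retinoic acid was compared between the sources by a test of the difference itself, in which 6 of 15202 genes passed (0.0395%), all lower, and no member. Crabp1 had the lowest unadjusted p of the members (0.0179), at a difference of -3.67 (SE 1.29, adjusted p = 0.433). In DESeq2, where 137 of 8777 genes passed, its adjusted p was 0.0393, and over all other settings tried it ran from 0.176 to 0.662. The difference of Aldh1a1 was -4.23 (SE 2.48, adjusted p = 0.585) and that of Cyp26b1 was 0.03 (95% confidence interval -2.24 to 2.30). Beside the Crabp1 values of days 28 and 35, Mki67 stood at 5.14 and 1.20 CPM in iPSC and 84.2 and 35.3 CPM in ESC libraries. Its part in the Crabp1 values was not tested.

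Other genes of the pathway were taken from lists drawn up with earlier results of these data known. Among 10 tested genes of retinoid uptake, binding and storage, 1 was higher and 1 lower on days 28 and 35 than on days 18, 21 and 25. Of all tested genes 3.91% passed in this comparison. At an unadjusted p under 0.05 by limma, 2 of the 10 were higher and 2 lower (21.0% of all genes). Rbp4, the retinol carrier of blood that binds STRA6, had 1.31 CPM in the iPSC and 7.08 CPM in the ESC library of day 28, and 0.824 and 1.52 CPM at day 35. On days 18, 21 and 25 its lowest, median and highest values were 2.91, 30.1 and 71.6 CPM. The groups overlapped only through the ESC library of day 28, which was above iPSC day 25 replicate 2, and the log2 fold change was -2.95 (SE 0.58, limma adjusted p = 0.0162). It passed in 15 of the 16 fits that left out a library and missed without iPSC day 28 (0.148). Bco2, an enzyme that cleaves carotenoids, ran from 1.06 to 2.43 CPM and from 0.254 to 1.18 CPM, at 0.65 (SE 0.168, adjusted p = 0.0469). Bco2 passed only in the fits without ESC day 18 replicate 2, ESC day 21 replicate 3 or iPSC day 18 replicate 2, and missed without the low Nrl pair (0.124), without ESC 1 and iPSC 2 of day 18 (0.0871) and without the 3 libraries that go against their source (0.150). Ttr, the carrier of RBP4 in blood, ran from 51.7 to 2072 CPM on days 28 and 35 and from 3.92 to 1554 CPM on days 18, 21 and 25, and did not pass (2.74, adjusted p = 0.192).

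Of 12 tested oxidoreductases that turn retinol into retinal or back, 0 passed by limma in this comparison, with 2 higher and 0 lower at an unadjusted p under 0.05, a share below the 21.0% of all genes. Rdh10, the main retinol dehydrogenase of the embryo, ran from 48.7 to 73.6 CPM on days 28 and 35 and from 19.2 to 61.4 CPM on days 18, 21 and 25 (0.62, adjusted p = 0.115). Between day 35 and day 18 it passed, at 1.24 (adjusted p = 0.0304), in 11 of the 16 fits that left out a library. It missed without either library of day 35, or without ESC day 18 replicate 1 or 3 or iPSC day 18 replicate 1 (highest adjusted p 0.128), and without the low Nrl pair (0.0925). Adh4 was listed at 0 CPM in all 16 libraries. A further list had 3 tested genes: Cyp26c1, of the CYP26 family, Cyp1b1 and Aldh8a1. Of these 0 passed by limma. Cyp26c1 was lower at an unadjusted p under 0.05 (21.0% of all genes), at -0.42 and a mean of only 0.451 CPM. Cyp1b1 stood at -1.56 (adjusted p = 0.336).

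None of the 12 receptors and cofactors passed by limma, with 1 lower at an unadjusted p under 0.05 (21.0% of all genes); 6 had positive and 6 negative log2 fold changes. The 2 at the highest CPM were Ncor1, a corepressor (-0.06), and Ncoa2, a coactivator (0.55). Of 14 tested target genes 5 were lower and 1 higher by limma at an unadjusted p under 0.05 (21.0% of all genes). Negative log2 fold changes were found for 12 of the 14. After adjustment 1 passed (3.91% of all genes), the lower Zfp503, a zinc finger repressor. It had 6.19 and 5.62 CPM in the iPSC and ESC libraries of day 28 and 6.18 and 8.88 CPM at day 35, and its lowest, median and highest earlier values were 6.29, 21.1 and 41.3 CPM. The later libraries overlapped the earlier ones only through ESC day 35, which was above iPSC day 25 replicate 2, the lowest earlier library (-1.42, SE 0.277, adjusted p = 0.0158). Zfp503 missed without iPSC day 28 (0.0832) and without ESC day 28 (0.0645), and also without the 3 libraries that go against their source (0.0608). The median log2 fold change of the target list was -0.47, against -0.0025 for all genes.

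Genes that mark the dorsal or ventral retina were listed because Aldh1a1 and Aldh1a3 mark those sides. Of the 10 tested, 0 passed by limma in this comparison, with 3 lower at an unadjusted p under 0.05 (21.0% of all genes). All 10 log2 fold changes were negative, with a median of -0.62. Between day 35 and day 18 Efnb1, a dorsal ephrin ligand, passed at -1.95 (adjusted p = 0.0463), in 6 of the 16 fits that left out a library, with an adjusted p of up to 0.445. It missed without the low Nrl pair (0.202), without ESC 1 and iPSC 2 of day 18 (0.0839) and without the 3 libraries that go against their source (0.0882).

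**Figure D4:**
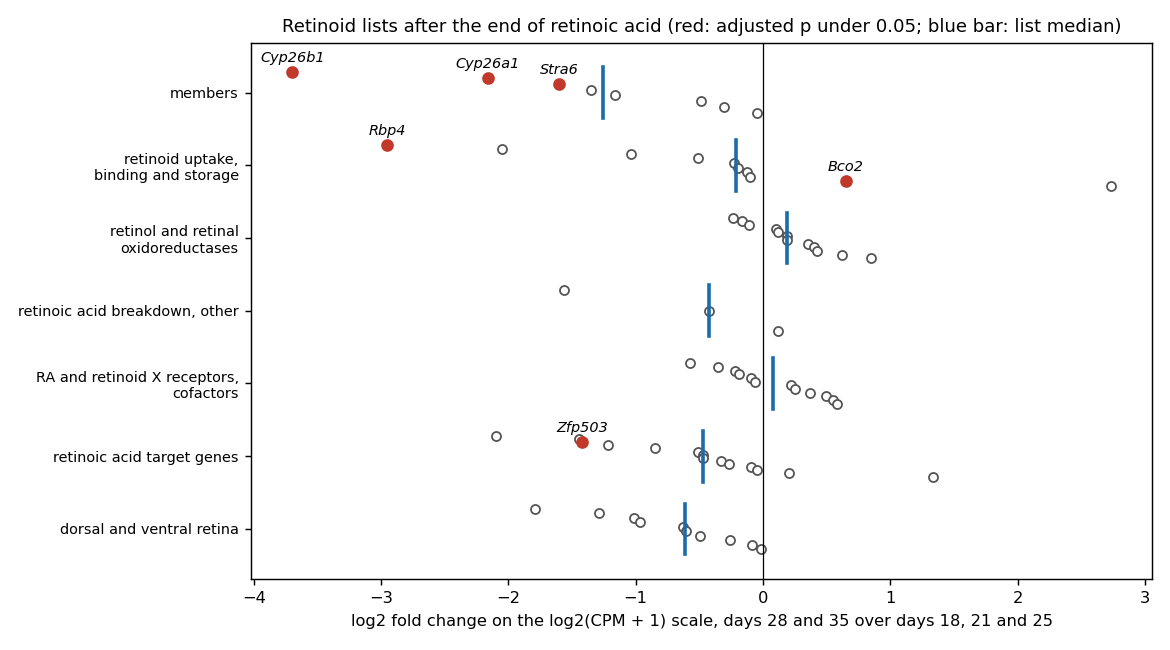
Log2 fold change on days 28 and 35 against days 18, 21 and 25 of each tested gene of the 8 members and 6 other retinoid lists (limma on log2(CPM + 1)); red points passed at an adjusted p under 0.05 and the blue bar is the list median. Cyp26b1 at -3.70 and Rbp4 at -2.95 are the lowest of the genes that passed, and the medians of the receptors (0.08) and oxidoreductases (0.19) stand near 0.

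Markers of several cell types passed in the same comparison, in which 3.91% of all tested genes passed. Their calls were not checked without the low Nrl pair or without the 3 libraries that go against their source. In those fits 294 of 15111 and 128 of 15130 genes passed. The summed level of 10 rod markers ran from 5194 to 14429 CPM on days 28 and 35 and from 47.9 to 8562 CPM on days 18, 21 and 25, and Gnat1, Pde6a, Rcvrn and Cnga1 were among those that passed as higher. That of 10 Muller glia markers ran from 259 to 1747 CPM and from 293 to 735 CPM, with Rlbp1, Aqp4 and Abca8a higher. The highest sum was in ESC day 35. Aqp4 was above its earlier maximum of 2.26 CPM in every later library. Rlbp1 in iPSC day 35 (4.75 CPM) was below its earlier median (5.51 CPM). Abca8a in the ESC and iPSC libraries of day 28 (0.113 and 0.309 CPM) lay inside its earlier range (0 to 1.05 CPM). Cone markers summed to 90.2 to 207 CPM and 101 to 808 CPM, with Pde6c lower of 6 tested and Opn1mw at 0 in all libraries. Fibroblast and mesenchyme markers summed to 32.6 to 140 CPM and 6.18 to 305 CPM, with none of 8 passing by limma and 2 higher at an unadjusted p under 0.05 (21.0% of all genes). Bipolar markers summed to 668 to 1035 CPM and 361 to 1784 CPM, with Prkca higher of 7 tested. Otx2 alone ran from 311 to 912 CPM and from 322 to 1690 CPM, so this sum follows Otx2 in large part. Of the 7 log2 fold changes 5 were positive and 2 negative. Ganglion markers summed to 5.82 to 83.9 CPM and 5.25 to 323 CPM, and all 8 had negative log2 fold changes (median -1.43), with none passing by limma and 0 at an unadjusted p under 0.05. The part of these cell types in the values of the 9 genes was not tested.

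As a description over the 16 libraries, which share depth and cell makeup, the members fell into different patterns. On log2(CPM + 1), Cyp26a1 and Rarb had a Pearson r of 0.919 and Aldh1a1 and Crabp1 one of 0.865, while Cyp26a1 and Cyp26b1 had 0.616 and Cyp26b1 and Rarb 0.432. Among tested genes with a mean of at least 5 CPM, the most alike to Cyp26a1 were Eomes (0.935), Adamts19 (0.932) and Neil3 (0.928), and those most alike to Rarb were Adamts19 (0.936), Fanci (0.925) and Tpm3 (0.924). Cyp26b1 was closest to Prex1 (0.889), Dopey2 (0.866) and Loxl2 (0.857). Aldh1a1 was closest to Prkch (0.947), Emb (0.943) and Tiam1 (0.937), and Crabp1 to Gstm7 (0.975), Vstm2b (0.972) and Dkk3 (0.971). Stra6 was closest to Glb1 (0.938), Hpcal1 (0.932) and Kdelc2 (0.929), Dhrs3 to Tshz1 (0.871), Hunk (0.871) and Asic1 (0.865), and Aldh1a3 to Adamts18 (0.893), Prmt3 (0.889) and Plagl1 (0.873).

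Transcript tables show which isoforms carried the signal. For Cyp26b1, the isoform Cyp26b1-205 held 72.3% of the TPM summed over libraries, from 51.7% to 75.0% on days 28 and 35 and from 62.8% to 82.5% on days 18, 21 and 25, and the next one held 25.2%. Their annotated 5' ends lie at positions 84587680 and 84588638 of chromosome 6, downstream of the RefSeq start at 84593810. The 2 isoforms whose 5' ends lie next to that start held 1.60% together, so the promoter window searched for Cyp26b1 belongs to isoforms with little of the assigned signal. The leading isoform, Dhrs3-207, held 64.1% of Dhrs3, and the first 2 isoforms of Stra6 held 40.2% and 30.1%. The first 2 isoforms of Aldh1a3 held 58.8% and 37.9%; at its low level these shares ran between 0% and 100% in single libraries. Isoform levels are the authors' estimates from reads that isoforms share, and no isoform comparison was tested.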

How the data were processed

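GFP-positive cells were profiled in 16 libraries. The authors trimmed reads (Trimmomatic 0.36) and estimated transcript levels with kallisto 0.42.5 against Ensembl release 84 (GRCm38.p4 build), as stated per the labels: the submitters' notes on processing and the design text. The design text adds that tximport made gene values and edgeR made CPM of them.

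The deposited gene table holds scores: its values, from -1 upward, equal the square of log2(CPM + 1) minus 1. This was worked out from the values, since the ratio of the CPM so recovered to the TPM was constant over libraries (tolerance 0.0001 on the log2 scale) for 6871 of 7037 genes (97.6%). The recovered CPM columns sum to 642418 to 885155, below the sum that unscaled CPM would have. The transcript tables hold estimated counts and TPM as the authors' kallisto runs gave them. They list 65535 transcripts, so genes whose transcripts they hold only in part or not at all were left out of TPM values and gene sums. Transcripts were matched to genes through GENCODE M21 (99.3%).

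Genes at 1 CPM or more in at least 2 libraries (15202) were fitted as log2(CPM + 1) with limma 3.58.1 (trend, R 4.3.3), with a mean per day and a term for source, and Benjamini-Hochberg adjustment over all of them; a threshold of 0.05 was used. Fold changes on this scale understate those of low genes. The test was run on simulated data first. Precision is limited by depth, with 3859553 estimated counts at the low end (iPSC day 28) and 21868907 at the high end (iPSC day 18 replicate 2), and by 4 libraries after day 26. Alternatives were other pseudocounts, filters and scalings, edgeR 4.0.16 and DESeq2 1.42.0 on rounded gene sums of estimated counts, array weights, a replicate block, single sources and left-out libraries. Promoters were searched in RefSeq windows with Python 3.11.15.

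The text names all 9 members whatever their test, the genes called in other retinoid lists (up to 4 a list, or the 2 of highest CPM), list sums, and the 3 genes most alike to each member. Cyp1b1, Cyp26c1, Aldh8a1, Ttr, Dct and Adh4 were added after their values were seen. The members and lists were chosen with earlier results of these data known.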

Additional observations from a re-analysis of the deposited data

Results flagged for a closer look

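Aldh1a1 in ESC day 18 replicate 2 was at 4.92 CPM, far from the other libraries of that day, which had 471 and 189 CPM in iPSC and 407 and 159 CPM in ESC. Its gap to the nearest other library, on log2(CPM + 1), was 0.753 of the range of the day. In all, 16 such checks of a group were made, and chance marks about 1 in 20.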

How the results depend on the processing

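In the comparison of days 28 and 35 with days 18, 21 and 25, 3 members passed, and 594 of 15202 genes in all. The number of members was 1 with no filter (434 of 22860 genes in all) and with CPM rescaled to the same sum (688 of 15243). With array weights (274 of 15202) it was also 1, as with edgeR on counts rebuilt from CPM (511 of 15694, added after seeing the data). It was 1 without the day 18 libraries ESC 1 and iPSC 2, where fewer than 594 genes passed in all. Without these 2 and iPSC day 25 replicate 1 it was 1 (128 of 15130). These are the 3 that go against their source, and this fit was added after seeing the data. The number was 2 with TMM (641 of 15213). Fits on gene sums tested 6 members, as Cyp26a1 and Rarb were not in them. They called 1 by edgeR (352 of 9319 genes in all) and 2 by DESeq2 (1004 of 9253). The number of members was 0 within ESC and within iPSC libraries. It ran from 0 to 3 when a library was left out, while all genes called ran from 38 (without iPSC day 28) to 965. Without the day 18 pair of low Nrl, Cyp26b1 (-3.54, adjusted p = 0.0141) and Stra6 (-1.75, 0.0431) passed and Cyp26a1 did not (-1.96, 0.0846). In that fit 294 of 15111 genes passed in all. Without ESC 1 and iPSC 2 of day 18, Cyp26b1 passed (0.0163). Between day 35 and day 18, 2 members passed (1144 of 15202 genes in all). The number was 1 by edgeR (644 of 9319) and by DESeq2 (1566 of 9253) on gene sums, where Cyp26a1 could not be called. It was 1 without the low Nrl pair (150 of 15111) and 0 within either source. With a library left out it was 1 to 3 (290 to 1809 genes in all). Between day 25 and day 18, 0 passed, 6 with array weights (9552 genes in all) and 0 to 1 with a library left out (0 to 1005 genes in all). Between day 28 and day 25 and between sources the number was 0 in every left-out fit. In the difference between sources it was 0 (6 of 15202 genes in all), and 1 by DESeq2 (137 of 8777).

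The same numbers (1 to 3) in the ESC libraries of days 18 and 21 correlated at 0.314, 0.059 and 0.249 in their deviations, and ESC day 18 library 2 correlated best with number 3 (0.123). Same-numbered libraries of the other groups, with 2 numbers in common, correlated at up to 0.641, with 1 at nearly 0. The highest value was between different numbers, ESC day 21 replicate 3 and iPSC day 18 replicate 2 (0.659). In a group of 2 libraries the deviations are equal and opposite, so each value recurs with its sign turned. Since not every same-numbered pair was over 0.1, the numbers were not taken to pair samples. With a replicate block on the number, members called were 3 after retinoic acid (1659 genes in all), 2 between day 25 and day 18 (Cyp26a1 -3.09, adjusted p = 0.0139, and Rarb -1.84, 0.0225; 2159 genes in all) and 3 between day 35 and day 18 (with Rarb, -2.15, 0.0151; 2943 genes in all).

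The log2 ratio of Cyp26a1 to Cyp26b1 differed by 0.86 to 1.75 with a library left out, by 0.66 with a pseudocount of 0.1 by 1.403 without the 3 libraries that go against their source, and by 2.36 without day 18, a choice made after its ratio was seen, which gives no support. The ratio from TPM could not be run because no transcript in the deposited transcript tables was matched to Cyp26a1.

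Signs that turned, in log2 fold change, were these. The difference between sources of Cyp26b1 was -0.10 with a pseudocount of 0.1, -0.11 with the same sum, -0.14 with the block, -0.0035 without the low Nrl pair and -0.17 without ESC 1 and iPSC 2. Between day 28 and day 25 Crabp1 was at 0.17 (edgeR), 0.084 (DESeq2), 0.16 (rebuilt counts), 0.26 (array weights), 0.63 (without the 3 libraries) and 1.71 (ESC only), and Rarb at 0.054 (rebuilt counts), 0.17 (array weights), 0.0057 (without ESC 1 and iPSC 2), 0.20 (without the 3 libraries) and 1.10 (ESC only). In ESC libraries only, Aldh1a1 was at 0.54 after retinoic acid, 0.59 between days 28 and 25 and 0.17 between days 35 and 18, Aldh1a3 at 0.33 and 0.88 in the first 2 of these, and Crabp1 at 0.60 in the first. Dhrs3 after retinoic acid was at 0.076 without the low Nrl pair and 0.33 in iPSC only; Stra6 between days 25 and 18 was at 0.027 with array weights; Cyp26b1 there was at -0.51 in iPSC only. With a library left out, values ran between days 28 and 25 from -2.85 to 1.39 for Aldh1a1, -0.85 to 0.53 for Aldh1a3, -1.30 to 1.399 for Crabp1, -0.048 to 0.33 for Dhrs3 and -0.74 to 0.75 for Rarb. They ran after retinoic acid from -0.66 to 0.027 for Aldh1a3 and -0.19 to 0.099 for Dhrs3, between sources from -0.81 to 0.44 for Aldh1a1 and -0.42 to 0.0059 for Rarb, and in the difference between sources from -0.14 to 0.32 for Cyp26b1. None of the members with a turned sign passed in that comparison. For each of these the cause was not tested. In the other settings tried for single genes, 654 values kept their sign and side of the threshold, 72 lost the call, 10 gained it and 26 turned.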

Other observations

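The 5 libraries with Aldh1a1 under 11 CPM also held the 5 lowest values of the dorsal marker Tbx5, from 0.870 to 4.32 CPM. The next library up, ESC day 35, had 5.53 CPM. Tbx3 and Efnb2, of the same list, also had their 5 lowest values there, at 0.204 to 1.91 CPM and 7.74 to 41.0 CPM. The next libraries up had 3.68 CPM of Tbx3 (ESC day 21 replicate 2) and 50.6 CPM of Efnb2 (ESC day 25). The rest of the list did not separate the 5 libraries. Tbx2, for example, had 30.9 CPM in ESC day 21 replicate 3 and 25.3 CPM in ESC day 35. This was seen in the values and was not tested. In other genes the 5 libraries differed. ESC day 18 replicate 2 held Ttr at 1554 CPM, Aldh1a2 at 2.48 CPM, the dorsal marker Tbx5 at 0.870 CPM and the ventral marker Vax2 at 0.891 CPM, and had the highest sum of fibroblast and mesenchyme markers of all 16 libraries (305 CPM). ESC day 21 replicate 3 held Vax2 at 49.98 CPM, the highest of the 16, and Tbx5 at 4.32 CPM. In iPSC day 25 replicate 2 Vax2 was at 9.31 CPM and Tbx5 at 3.15 CPM. The iPSC libraries of days 28 and 35 held Tbx5 at 1.96 and 2.72 CPM and had progenitor marker sums of 207 and 153 CPM. The ESC libraries of those days, with Aldh1a1 at 93.2 and 80.9 CPM, had progenitor sums of 790 and 586 CPM.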
